A study of Homo sapiens with 9 samples.

Results

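Messenger RNA of the enzymes that build, lengthen and desaturate fatty acids was followed across 3 human breast epithelial lines. The 10 genes were chosen by symbol from the 62666 genes of the deposited tables: ACLY, ACSS2, ACACA, FASN, ELOVL5, ELOVL6, SCD, SCD5, FADS1 and FADS2. MCF10A cells are immortalised breast epithelium that does not form tumours. MCF10AT1 carries an activated HRAS introduced into MCF10A and models premalignant growth, and MCF10Ca1a, from further down that lineage, forms malignant tumours. The study asked how expression shifts as breast cancer progresses, and made 3 polyadenylated RNA libraries per line. All lines grew in DMEM/F12 with glutamine, insulin, epidermal growth factor, hydrocortisone and cholera toxin. Horse serum was at 5% for MCF10A and MCF10Ca1a and at 2.5% for MCF10AT1. In both comparisons that involve MCF10AT1 the effects of line and of serum cannot be told apart, while MCF10A and MCF10Ca1a had the same serum. Each stage is 1 line, and no label says that the libraries of a line came from separate cultures, so p-values measure only the spread between these libraries.

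Fatty acid synthesis starts from cytosolic acetyl-CoA, which ATP citrate lyase (ACLY) makes from citrate and acetyl-CoA synthetase (ACSS2) makes from acetate. Acetyl-CoA carboxylase (ACACA) turns it into malonyl-CoA, and fatty acid synthase (FASN) joins these units into palmitate, which elongases of the ELOVL family lengthen and stearoyl-CoA desaturases make monounsaturated. FADS1 and FADS2 put further double bonds into the essential fatty acids taken up from outside the cell, and much of the pathway is under the control of the SREBP transcription factors and, in the mammary gland, rises when milk fat is made.

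The libraries held from 32.9 to 69.5 M counts each, and those of MCF10Ca1a were the shallowest at 32.9 to 35.2 M. The lowest count of any of the 10 genes in a library was 171, for SCD5 in MCF10Ca1a. The 8 breast epithelial marker genes summed to 2924 to 4037 TPM in MCF10A, 4457 to 5036 in MCF10AT1 and 4158 to 4287 in MCF10Ca1a, and none was at 0 counts in every library of a line, although KRT19 averaged 0.0566 TPM in MCF10A. Of the 4 adipocyte markers, ADIPOQ and LEP averaged at most 0.0040 TPM in any line, but with PLIN1 and CIDEC the list summed to 0.0273 to 0.116 TPM in MCF10A, 0.110 to 0.206 in MCF10AT1 and 6.70 to 7.46 in MCF10Ca1a. The 4 fibroblast markers summed to 6.40 to 7.21, 27.5 to 31.4 and 1.92 to 2.29 TPM in the same order, mostly from DCN in MCF10AT1, and COL1A2 had at most 1 count. The 3 endothelial markers summed to 0.554 to 0.746, 0.789 to 1.22 and 15.6 to 20.8 TPM, nearly all from PECAM1, with CDH5 and VWF at 3 counts or fewer. The 3 immune markers summed to 7.58 to 9.41, 3.39 to 3.94 and 0.178 to 0.281 TPM, nearly all from CD14, with CD3E at 0 and PTPRC at 2 counts or fewer. These lists move with the lines, and their part in the results below was not tested. TPM, a relative abundance corrected for transcript length, is the scale on which levels of different genes are compared below, and changes between lines come from edgeR's quasi-likelihood test on counts. The TPM scale sits apart from the count scale: over all genes that passed a TPM filter the median log2(TPM + 1) difference was -0.11 for MCF10AT1 against MCF10A and 0.19 for MCF10Ca1a against MCF10AT1, while the edgeR medians were 0.00 and -0.04.

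The 10 genes together made up 739 ± 117 TPM in MCF10A (SD, n = 3), 1240.4 ± 19.9 TPM in MCF10AT1 and 1891 ± 14.6 TPM in MCF10Ca1a. SCD alone held 29.7% of that sum in MCF10A, 49.1% in MCF10AT1 and 47.7% in MCF10Ca1a. The increase was not shared by all of the pathway. Between MCF10A and MCF10Ca1a, the genes for acetyl-CoA supply, carboxylation, synthesis and the main stearoyl-CoA desaturase rose, and ELOVL6, SCD5, FADS1 and FADS2 fell. In the MCF10A libraries, replicate 1 was the highest and replicate 3 the lowest in TPM for all 10 genes, with summed levels of 866, 717 and 634 TPM for replicates 1, 2 and 3. Bulk RNA cannot tell fewer expressing cells from less RNA per cell.

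**Figure D1:**
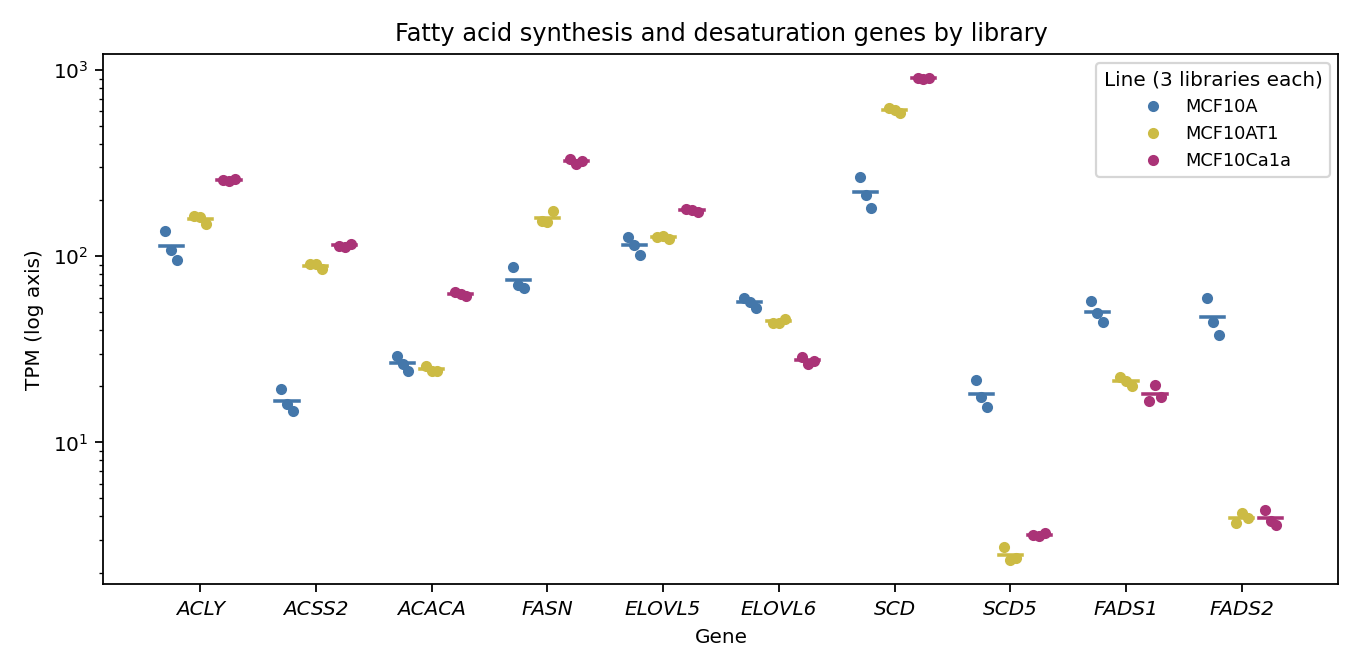
Level of each gene in TPM on a log axis, with 1 point per library, 3 libraries per line, and a bar at the mean of each line. SCD is the most abundant of the 10 in every line, and FADS2 drops from 47.1 TPM in MCF10A to 3.95 and 3.91 TPM in the other lines.

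From MCF10A to MCF10AT1, 5 of the 10 genes rose and 4 fell at an adjusted p under 0.05. For comparison, 29.8% of the 17910 genes tested were called higher and 31.8% lower in the same fit, so a call as such was common. With a change of at least 2-fold also required, 3 genes rose and 2 fell, against 9.36% and 8.64% of all genes. The median size of the change, sign ignored, was 0.97 on the log2 scale for the 10 genes and 0.38 for all genes, and the median signed change was 0.13 and 0.00.

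From MCF10AT1 to MCF10Ca1a, 5 genes rose and 3 fell, where 38% of all genes tested rose and 40.3% fell. At 2-fold or more 1 rose, ACACA, and 1 fell, ELOVL6, against 18.2% and 19.5% of all genes. Here the median size of the change was 0.36 for the 10 genes and 0.76 for all genes, and the median signed change was 0.15 and -0.04. The split of calls depended on the scale at this step: limma on log2(TPM + 1) with a filter gave 7 higher and 1 lower, and edgeR with DESeq2 size factors gave 6 and 2. Over all genes the same limma test called 6869 higher and 4422 lower at this step, where edgeR called 6808 and 7226, and for MCF10AT1 against MCF10A it called 3015 and 5406, where edgeR called 5335 and 5690.

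Between the ends of the series, all 10 genes were called, 6 higher and 4 lower in MCF10Ca1a than in MCF10A, beside 39% and 41.9% of all genes. At 2-fold or more 5 rose and 4 fell, against 21.2% and 21.7% of all genes, and ELOVL5 was the gene under 2-fold. The median size of the change was 1.74 for the 10 genes and 0.84 for all genes. The 3 comparisons share their libraries, so their values are not independent of each other.

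**Figure D2:**
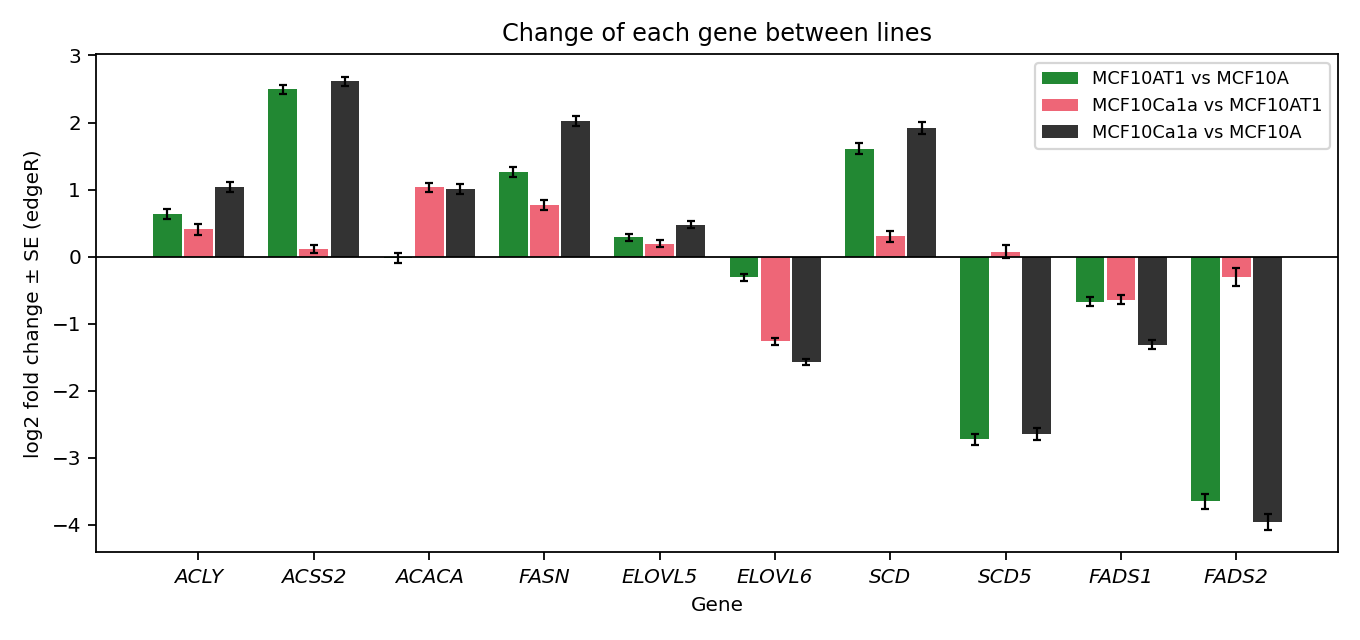
Log2 fold change of each gene with its standard error in the 3 comparisons, from edgeR on counts. ACSS2, SCD, SCD5 and FADS2 changed mostly between MCF10A and MCF10AT1, whereas ACACA and ELOVL6 changed mostly between MCF10AT1 and MCF10Ca1a.

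Both sources of cytosolic acetyl-CoA were higher in the later lines. ACLY, the citrate-cleaving enzyme, was measured at 137, 108 and 95.7 TPM in the MCF10A libraries, 164, 163 and 149 TPM in MCF10AT1, and 258, 254 and 262 TPM in MCF10Ca1a. No library of one line overlapped with those of another. It rose 1.55-fold in MCF10AT1 over MCF10A (log2 change 0.63 ± 0.08 SE, edgeR adjusted p = 7.97e-06) and 1.33-fold more in MCF10Ca1a (0.41 ± 0.08, edgeR adjusted p = 0.00025), the second change being as large as 0.70 by limma on TPM.

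ACSS2, which makes acetyl-CoA from acetate and so does without glucose carbon, was the member that rose most. Its levels were 19.4, 16.1 and 14.7 TPM in MCF10A, 91.0, 90.6 and 85.3 TPM in MCF10AT1, and 114, 113 and 117 TPM in MCF10Ca1a. The MCF10A libraries lay far below the other 6. ACSS2 rose 5.65-fold in MCF10AT1 (log2 change 2.50 ± 0.07 SE, edgeR adjusted p = 1.44e-12) and stood 6.13-fold above MCF10A in MCF10Ca1a (2.62 ± 0.07, edgeR adjusted p = 2.60e-13). Its change between MCF10AT1 and MCF10Ca1a did not pass the test in edgeR (0.12 ± 0.06, adjusted p = 0.0938), but 6 of 11 other processing choices called it higher at 0.13 to 0.36, as did the fit without MCF10A replicate 1 at 0.10.

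The carboxylase rose at 1 of the 2 steps and the synthase at both. ACACA, the carboxylase, read 29.2, 26.5 and 24.1 TPM in MCF10A, 25.7, 24.1 and 24.3 TPM in MCF10AT1, and 64.5, 63.0 and 61.3 TPM in MCF10Ca1a. The MCF10A and MCF10AT1 libraries overlapped and those of MCF10Ca1a stood above both. The change from MCF10A to MCF10AT1 was -0.02 ± 0.07 (edgeR adjusted p = 0.802), and the rise from MCF10AT1 to MCF10Ca1a was 2.05-fold (log2 change 1.03 ± 0.07, edgeR adjusted p = 7.90e-09).

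FASN, the multidomain synthase that releases palmitate, gave 87.3, 69.7 and 67.2 TPM in MCF10A, 154, 152 and 174 TPM in MCF10AT1, and 333, 313 and 324 TPM in MCF10Ca1a. Each line stood clear of the one before. FASN rose 2.39-fold in MCF10AT1 (log2 change 1.26 ± 0.08 SE, edgeR adjusted p = 6.44e-09) and 1.70-fold more in MCF10Ca1a (0.77 ± 0.07, edgeR adjusted p = 3.65e-07), which made it 4.07-fold higher in MCF10Ca1a than in MCF10A.

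The pair of elongases went in opposite directions. ELOVL6, which lengthens palmitate to stearate, was at 59.9, 57.0 and 52.6 TPM in MCF10A, 43.7, 44.0 and 46.3 TPM in MCF10AT1, and 28.8, 26.5 and 27.4 TPM in MCF10Ca1a. Without overlap between lines, it fell in MCF10AT1 (log2 change -0.31 ± 0.05 SE, edgeR adjusted p = 6.75e-05) and fell further in MCF10Ca1a (-1.26 ± 0.05, edgeR adjusted p = 2.51e-11), to a level 2.98-fold under that of MCF10A by counts. The last changes of ELOVL6 were smaller on TPM: limma on log2(TPM + 1) with a filter gave a log2 change of -0.68 in MCF10Ca1a against MCF10AT1 beside edgeR's -1.26, and -1.01 against MCF10A beside -1.57. The cause was not tested.

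ELOVL5, the elongase of polyunsaturated fatty acids, had 127, 115 and 102 TPM in MCF10A, 128, 129 and 124 TPM in MCF10AT1, and 179, 178 and 174 TPM in MCF10Ca1a. In TPM the libraries of MCF10A and MCF10AT1 overlapped. The rise in MCF10AT1 (log2 change 0.29 ± 0.05 SE, edgeR adjusted p = 0.00036) was lost on the TPM scale, where limma gave 0.15 with adjusted p between 0.128 and 0.195. The rise from MCF10AT1 to MCF10Ca1a (0.19 ± 0.05, edgeR adjusted p = 0.00506) was lost without the filter on low counts (0.10, edgeR adjusted p = 0.212) and was as large as 0.48 by limma on TPM, and the difference of MCF10Ca1a from MCF10A was 1.39-fold (0.48 ± 0.05, edgeR adjusted p = 1.56e-06).

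As a share of ELOVL5 and ELOVL6 together, ELOVL6 made up 33.1% ± 1.0 of TPM in MCF10A (SD, n = 3), 26.1% ± 1.0 in MCF10AT1 and 13.5% ± 0.45 in MCF10Ca1a. The libraries of the lines did not overlap. MCF10Ca1a differed by -12.6 percentage points from MCF10AT1 and by -19.6 from MCF10A on TPM, but by -22.4 and -32.8 on estimated counts. An exact two-sided permutation test gave p = 0.1 in each of the 3 comparisons, the smallest value that 3 libraries against 3 allow.

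The stearoyl-CoA desaturases, which introduce the first double bond into palmitate and stearate, split even more. SCD, the form found in most tissues, stood at 267, 213 and 181 TPM in MCF10A, 624, 612 and 591 TPM in MCF10AT1, and 902, 900.4 and 904 TPM in MCF10Ca1a. Every MCF10AT1 library was more than the MCF10A maximum and less than the MCF10Ca1a minimum. SCD rose 3.05-fold in MCF10AT1 (log2 change 1.61 ± 0.08 SE, edgeR adjusted p = 1.56e-09) and 1.24-fold more in MCF10Ca1a (0.31 ± 0.08, edgeR adjusted p = 0.00383), the second step being 0.57 on the log2(TPM + 0.1) and log2(TPM + 1) scales.

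SCD5, the second human stearoyl-CoA desaturase, did the reverse. Its levels were 21.7, 17.6 and 15.4 TPM in MCF10A, 2.73, 2.33 and 2.40 TPM in MCF10AT1, and 3.18, 3.13 and 3.24 TPM in MCF10Ca1a. All 6 later libraries were far below the MCF10A ones. It fell 6.60-fold in MCF10AT1 (log2 change -2.72 ± 0.08 SE, edgeR adjusted p = 7.66e-12), and MCF10Ca1a stayed 6.26-fold under MCF10A (-2.65 ± 0.09, edgeR adjusted p = 4.04e-12). Between the later lines the change was 0.08 ± 0.10 (edgeR adjusted p = 0.497) by counts, and 0.26 to 0.35 by limma on TPM with a filter (adjusted p = 0.0247 to 0.0397).

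SCD5 accounted for 7.51, 7.62 and 7.85% of the TPM of SCD and SCD5 together in MCF10A, 0.435, 0.379 and 0.405% of it in MCF10AT1, and 0.351, 0.347 and 0.357% in MCF10Ca1a. On TPM this share differed by -7.25 percentage points in MCF10AT1 and by -7.31 in MCF10Ca1a from MCF10A, and on estimated counts by -3.88 and -3.91. From MCF10AT1 to MCF10Ca1a the difference was -0.055 points on TPM and -0.031 on estimated counts. On TPM the 3 lines did not overlap, and the exact two-sided permutation p was 0.1, the smallest possible, in each comparison.

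To place these opposite movements beside the gene starts, the 250 bases upstream of the RefSeq start (GRCh38.p14) are given for SCD and SCD5, and for ACSS2, which rose most. Capitals mark a GC box (GGGCGG, or CCGCCC on the other strand) or a CCAAT box (CCAAT, or ATTGG on the other strand), as found by letter match. The SCD window is chr10:100346983-100347232 on the plus strand, that of SCD5 is chr4:82798797-82799046 on the minus strand, and that of ACSS2, its second listed start, is chr20:34876362-34876611 on the plus strand. These windows run past the GENCODE 29 starts of SCD (ENST00000370355, chr10:100347124), SCD5 (ENST00000319540, chr4:82798857) and ACSS2 (ENST00000360596, chr20:34876435). The deposited versions of these transcripts differ from those of GENCODE 29. All GC boxes marked for SCD and ACSS2, and the last one of SCD5, lie after those starts.
SCD: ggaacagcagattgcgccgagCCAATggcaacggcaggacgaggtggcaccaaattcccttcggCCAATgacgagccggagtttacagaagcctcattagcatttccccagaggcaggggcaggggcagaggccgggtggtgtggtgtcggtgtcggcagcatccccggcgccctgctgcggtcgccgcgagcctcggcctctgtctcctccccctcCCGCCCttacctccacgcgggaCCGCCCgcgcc
SCD5: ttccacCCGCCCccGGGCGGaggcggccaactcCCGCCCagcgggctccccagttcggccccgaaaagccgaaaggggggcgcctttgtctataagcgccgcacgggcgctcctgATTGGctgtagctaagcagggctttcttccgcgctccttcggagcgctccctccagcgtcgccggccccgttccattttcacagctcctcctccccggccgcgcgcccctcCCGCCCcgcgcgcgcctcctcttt
ACSS2: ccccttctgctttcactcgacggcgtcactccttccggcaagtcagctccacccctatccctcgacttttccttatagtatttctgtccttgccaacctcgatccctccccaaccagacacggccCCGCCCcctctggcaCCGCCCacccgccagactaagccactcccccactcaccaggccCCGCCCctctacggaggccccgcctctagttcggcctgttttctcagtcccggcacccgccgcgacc

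The SCD window held 2 CCAAT boxes and 2 GC boxes, the SCD5 window 1 and 4, and the ACSS2 window 0 and 3. The window of the first listed ACSS2 start, not printed, held 1 and 1. The 9 members with an entry in the promoter table (FASN has none) have 14 windows, some of which belong to the same gene. Of these 14, 8 held a CCAAT box and 11 a GC box, where 32.0% and 42.6% of 35116 windows of the same length in the table held one. The sterol regulatory element core searched for, TCACNCCAC on either strand, was in none of the 14 member windows and in 0.883% of all windows, and the E-box CACGTG was in the ELOVL5 window and in 6.34% of all. These are letter matches in the windows printed or searched and say nothing about binding. Both FADS2 windows, chr11:61815953-61816202 and chr11:61816154-61816403, lie near the upstream FADS2 starts described below. No window covered the start of ENST00000278840 at chr11:61827761, the main FADS2 transcript in MCF10A.

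The desaturases of polyunsaturated fatty acids were both highest in MCF10A. FADS1, the desaturase that completes arachidonic acid, read 57.5, 49.3 and 44.1 TPM in MCF10A, 22.5, 21.4 and 20.0 TPM in MCF10AT1, and 16.6, 20.4 and 17.5 TPM in MCF10Ca1a. The MCF10A libraries stood above the rest, while those of MCF10AT1 and MCF10Ca1a overlapped in TPM. FADS1 fell in MCF10AT1 (log2 change -0.67 ± 0.07 SE, edgeR adjusted p = 1.08e-06) and again in MCF10Ca1a (-0.64 ± 0.07, edgeR adjusted p = 1.12e-06), but the second fall was -0.22 to -0.23 and not called by limma on TPM (adjusted p = 0.0729 to 0.153), and the first was as large as -1.23 there.

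FADS2, the desaturase at the entry of the polyunsaturated pathway, was the member that fell most. It was at 59.4, 44.1 and 37.6 TPM in MCF10A, 3.70, 4.19 and 3.95 TPM in MCF10AT1, and 4.35, 3.77 and 3.60 TPM in MCF10Ca1a. The later lines overlapped each other and lay far below MCF10A. FADS2 fell 12.5-fold in MCF10AT1 (log2 change -3.65 ± 0.11 SE, edgeR adjusted p = 6.67e-12) and was 15.5-fold lower in MCF10Ca1a than in MCF10A (-3.95 ± 0.12, edgeR adjusted p = 1.47e-12). By limma on log2(TPM + 1) with a filter, a scale that understates changes of low genes, the FADS2 difference between MCF10Ca1a and MCF10A was -3.27. The call of a further fall from MCF10AT1 to MCF10Ca1a (-0.31 ± 0.13, edgeR adjusted p = 0.0459) was lost under 8 of 11 other processing choices, with changes from -0.31 to -0.01, and in 5 of 9 fits that left out a library.

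In the transcript estimates, 1 of the FADS2 transcripts was listed at 0 in both later lines. In GENCODE 29 on GRCh38, FADS2 lies on the plus strand of chromosome 11, and the 3 transcripts that carry it here share 10 internal exons and differ in their first exon. ENST00000278840 starts at chr11:61827761, which is 11.5 kb downstream of the start of ENST00000257261 at chr11:61816256, and ENST00000522056 starts at chr11:61816404. The deposited table holds version 9 of ENST00000278840 and GENCODE 29 version 8, so the start and first exon given here for it may not be those quantified, while the versions of the other two are the same. The coding bases of the first exons are given because they tell the transcripts apart, with the start codon in capitals. On the plus strand they span chr11:61828391-61828597, chr11:61816286-61816426 and chr11:61816583-61816696.
ENST00000278840: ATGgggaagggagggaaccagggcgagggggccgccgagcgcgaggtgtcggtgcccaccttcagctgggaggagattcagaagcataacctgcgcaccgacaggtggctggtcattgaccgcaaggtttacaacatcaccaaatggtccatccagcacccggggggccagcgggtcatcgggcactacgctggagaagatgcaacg
ENST00000257261: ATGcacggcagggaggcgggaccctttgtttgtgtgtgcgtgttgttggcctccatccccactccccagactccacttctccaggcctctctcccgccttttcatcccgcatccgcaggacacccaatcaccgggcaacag
ENST00000522056: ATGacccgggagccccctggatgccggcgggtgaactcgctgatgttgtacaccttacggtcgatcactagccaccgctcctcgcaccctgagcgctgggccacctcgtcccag

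ENST00000278840, the transcript with the downstream start, had 5669, 4793 and 4367 estimated counts in the MCF10A libraries, which was 58.8% ± 2.0 of FADS2 TPM (SD, n = 3). It was listed at 0 counts in all 6 MCF10AT1 and MCF10Ca1a libraries. No fold is given, since this 0 depends on how reads were divided between the transcripts. Its share was called lower in both lines by limma on transcript shares (adjusted p = 2.87e-07 and 1.23e-07).

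The estimates for the transcripts from the upstream starts were also lower. ENST00000257261 and ENST00000522056 summed to 18.8, 12.3 and 11.01 TPM in MCF10A, 3.34, 3.62 and 3.44 TPM in MCF10AT1, and 3.61, 3.33 and 3.56 TPM in MCF10Ca1a. Their summed level was thus lower in every later library than in any MCF10A library, although their shares of FADS2 were larger. ENST00000257261 went from 8.43% of FADS2 TPM in MCF10A to 49.0% in MCF10AT1 and 48.7% in MCF10Ca1a, and its share was called higher in both (limma adjusted p = 2.28e-05 and 7.05e-06). ENST00000522056 went from 21.1% to 39.0% and 41.3%, called higher in both (limma adjusted p = 0.00988 and 0.00104), the first call being lost with the replicate number as a block (adjusted p = 0.0583).

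Estimated counts divide reads between transcripts that share most of their exons, so a value of 0 is the estimate of the quantification program and not a direct absence of reads. The FADS1 gene overlaps FADS2 on the opposite strand, from 61799625 to 61829318, which covers all 3 FADS2 starts. The main FADS1 transcript, ENST00000350997, spans only 61799625 to 61817162 in GENCODE 29, whose version of it differs from the deposited one. It covers the upstream FADS2 starts but not that of ENST00000278840. The libraries were stranded, per the labels, but whether the counting used the strand is not given in the sources used here. FADS1 and FADS2 both fell, and the part of shared reads in this was not tested.

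**Figure D3:**
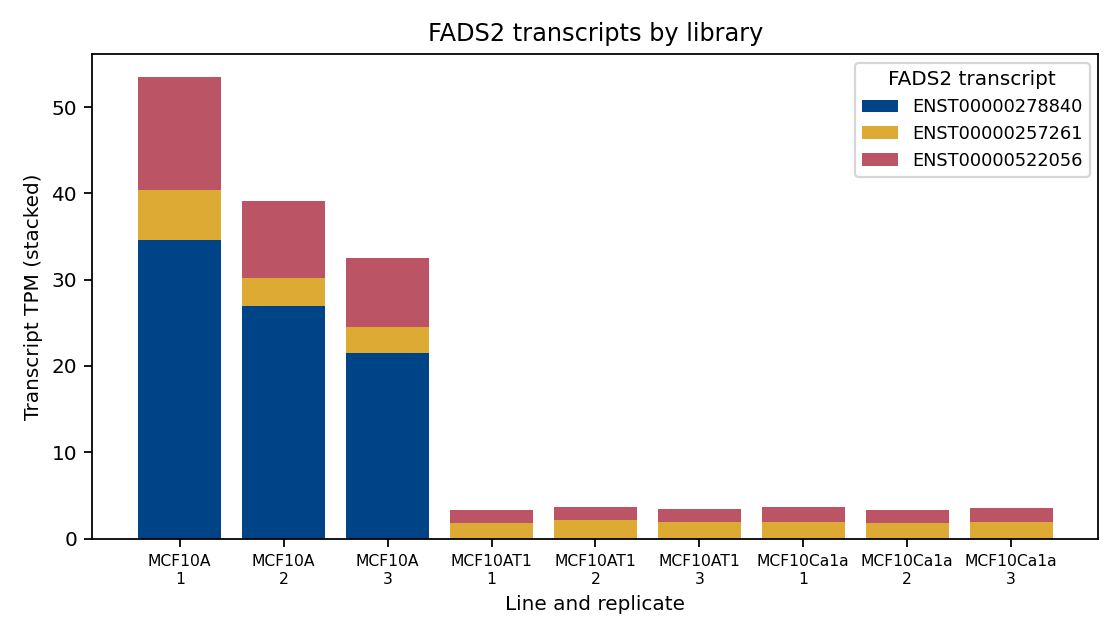
TPM of the 3 FADS2 transcripts stacked for each of the 9 libraries, with other FADS2 transcripts left out. The downstream-start transcript ENST00000278840 is present in the 3 MCF10A libraries and at 0 in the other 6, and the upstream-start transcripts are also lower there.

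The exon numbers and coding lengths below are those of GENCODE 29, whose versions of ENST00000302274, ENST00000352035 and ENST00000350997 differ from the deposited ones. Of the 19 transcripts that held at least 10% of a member in a line, 18 had a partner transcript and could be tested for their share. Calls numbered 4 for MCF10AT1 against MCF10A, 6 for MCF10Ca1a against MCF10AT1 and 8 for MCF10Ca1a against MCF10A, beside 1.81%, 15.4% and 20.5% of 65573 transcripts tested. The sets are unlike, since the 65573 needed only a mean of 10 counts and no minimum share of their gene. Calls of the first comparison were the 3 FADS2 transcripts, whose shares depend on each other, and ENST00000539999 of FADS1, an unstable call described below. One call of the second comparison is ENST00000278840, at 0 counts in both lines, where the value comes from the pseudocount of 0.5 alone and is no change. SCD had a single transcript, and the shares of the FASN, ACSS2, ELOVL5 and SCD5 transcripts were not called in any comparison.

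The fall of ELOVL6 was uneven between its transcripts. ENST00000302274, with 4 exons, held 44.5, 42.2 and 42.0% of ELOVL6 TPM in MCF10A, 35.1, 37.3 and 28.3% of it in MCF10AT1, and 11.6, 17.9 and 13.2% in MCF10Ca1a. Its share in MCF10Ca1a was lower than in every other library (limma adjusted p = 0.00148 against MCF10A and 0.00719 against MCF10AT1). The share of ENST00000394607, with 5 exons and the same coding length of 795 bases, was 42.0%, 45.3% and 47.8% on average in the 3 lines. By the ratio of its counts to the rest of ELOVL6 it was called higher in MCF10Ca1a (limma adjusted p = 0.00174 against MCF10A and 0.00894 against MCF10AT1). Another ELOVL6 transcript, ENST00000506625, with 410 coding bases, held 10.8, 7.38 and 5.21% of ELOVL6 TPM in the MCF10A libraries, 2.92, 10.8 and 10.6% in those of MCF10AT1, and 11.2, 21.7 and 12.8% in those of MCF10Ca1a. It rests on 28.2 to 120 counts, and its share did not pass the test (log2 ratio change 1.42 ± 0.59 SE in MCF10Ca1a against MCF10A, limma adjusted p = 0.144), except in 1 of 9 fits without a library, that without MCF10AT1 replicate 1 (adjusted p = 0.0415). In TPM itself, ENST00000302274 went from 24.3 in MCF10A to 3.90 in MCF10Ca1a and ENST00000394607 from 23.7 to 13.2.

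Most of the added ACLY TPM was assigned to 1 of its transcripts. ENST00000352035 went from 46.9 TPM in MCF10A to 90.8 in MCF10AT1 and 150.0 in MCF10Ca1a, and from 41.7% to 57.2% and 58.1% of ACLY. ENST00000590151 was at 39.2, 43.1 and 47.8 TPM, which lowered its share from 34.3% to 27.2% and 18.5%. The shares of both differed between MCF10Ca1a and MCF10A (limma adjusted p = 0.0081 and 0.00261). These transcripts have the same number of exons, 29, and the same coding length of 3303 bases, with starts and ends that lie close together, so how reads were divided between them is uncertain. ENST00000353196, with 28 exons and 3273 coding bases, had 19.8%, 12.9% and 19.1%. Its call and that of ENST00000590151 between MCF10AT1 and MCF10Ca1a (limma adjusted p = 0.0372 and 0.0279) were both lost with a lower count minimum and with the replicate number as a block. Of 9 fits without a library, 8 lost the call of ENST00000353196 (all but that without MCF10A replicate 1), and 5 lost that of ENST00000590151 (those without any 1 of the MCF10AT1 libraries or without MCF10Ca1a replicate 1 or 2).

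A short FADS1 transcript, ENST00000539999, bears on the FADS1 values above. It had 131, 126 and 133 counts in MCF10A but, having only 372 coding bases, took 26.1% of FADS1 TPM there. It was at 0 counts in the 3 MCF10AT1 libraries and at 0, 15.6 and 0 counts in MCF10Ca1a. The main transcript ENST00000350997 alone read 41.3, 34.6 and 30.1 TPM in MCF10A, 21.4, 20.5 and 19.0 TPM in MCF10AT1, and 14.7, 15.6 and 15.6 TPM in MCF10Ca1a, without overlap between lines. Its share of FADS1 was 70.1% in MCF10A, 95.1% in MCF10AT1 and 84.9% in MCF10Ca1a on average, and was called lower in MCF10Ca1a than in MCF10AT1 (log2 ratio change -1.42 ± 0.24 SE, limma adjusted p = 0.0101), a call kept under the 3 other settings tried and in all 9 fits without a library. The call of the short transcript's share in MCF10AT1 (limma adjusted p = 0.0424) was lost under the 3 other settings tried and in 7 of 9 fits without a library, all but those without MCF10Ca1a replicate 2 or 3. Its share was called in MCF10Ca1a against MCF10AT1 and against MCF10A only in the fit without MCF10Ca1a replicate 2, the library with 15.6 counts (limma adjusted p = 0.00346 and 9.28e-06), and the first of these then compares libraries that are all at 0 counts, so it comes from the pseudocount and is no change. For ACACA, the share of ENST00000614428 was called higher in MCF10Ca1a than in MCF10A (limma adjusted p = 0.0458), a call lost with a lower count minimum and with the replicate number as a block (adjusted p = 0.0881 and 0.0721), and in 7 of 9 fits without a library, all but those without MCF10AT1 replicate 1 or 2, at adjusted p up to 0.127.

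**Figure D4:**
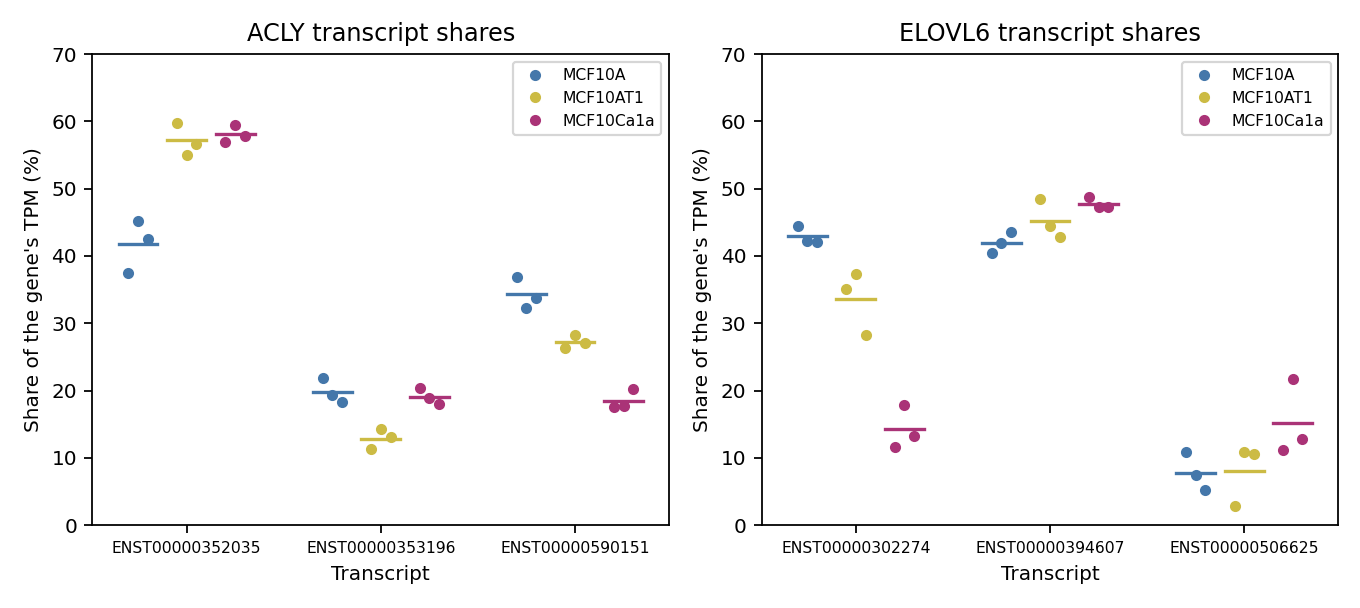
Share of the gene's TPM held by the main ACLY and ELOVL6 transcripts, 1 point per library and a bar at the mean of each line. ENST00000352035 of ACLY is higher in the later lines, and ENST00000302274 of ELOVL6 falls from 42.9% in MCF10A to 14.2% in MCF10Ca1a.

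The regulators of the pathway were for the most part higher in MCF10Ca1a. Of 17 tested, 8 rose and 4 fell in MCF10AT1 against MCF10A, 12 rose and 4 fell in MCF10Ca1a against MCF10AT1, and 12 rose and 2 fell in MCF10Ca1a against MCF10A, with median log2 changes of 0.09, 0.38 and 0.66 where all genes had 0.00, -0.04 and -0.05. The counts come to 47.1% higher and 23.5% lower in the first comparison, 70.6% and 23.5% in the second, and 70.6% and 11.8% in the third, beside 29.8% and 31.8%, 38% and 40.3%, and 39% and 41.9% of all genes. By limma on log2(TPM + 1) with a filter the first of these medians was -0.05 and the calls of the second comparison were 13 and 2. SREBF1, whose product SREBP1 drives fatty acid synthesis genes, averaged 41.6 TPM in MCF10A, 102 in MCF10AT1 and 159 in MCF10Ca1a. It rose at both steps (log2 change 1.21 ± 0.08 and 0.38 ± 0.08, edgeR adjusted p = 1.69e-08 and 0.000572). SREBF2, the relative more tied to cholesterol genes, did not pass the test in MCF10AT1 (0.09 ± 0.08, edgeR adjusted p = 0.324) and rose in MCF10Ca1a over MCF10AT1 (1.54 ± 0.08, edgeR adjusted p = 5.12e-10).

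INSIG1, itself an SREBP target that holds SREBP precursors back, averaged 58.3, 209.7 and 219 TPM, with a rise of 2.00 ± 0.05 in MCF10AT1 and a fall of 0.24 ± 0.05 from there to MCF10Ca1a by counts (edgeR adjusted p = 1.34e-12 and 0.000534), though its mean TPM was not lower in MCF10Ca1a. PRKAA2, a catalytic subunit of the kinase AMPK that restrains acetyl-CoA carboxylase, was the regulator that rose most in MCF10AT1 (2.03 ± 0.07) and fell most from there to MCF10Ca1a (-1.37 ± 0.07), at 0.836 to 0.898, 3.12 to 3.24 and 1.49 to 1.52 TPM in the libraries of MCF10A, MCF10AT1 and MCF10Ca1a. USF1, a transcription factor of lipogenic promoters, fell most in MCF10AT1 (-0.77 ± 0.05), and MBTPS2, a protease that releases SREBPs, fell most in MCF10Ca1a against MCF10A (-0.59 ± 0.06). MLXIPL and THRSP of this list were too low to test.

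Among the partners of synthesis, which include other elongases, desaturases and acyl-CoA synthetases, 7 of 18 tested rose and 5 fell in MCF10AT1 against MCF10A, 7 and 8 in MCF10Ca1a against MCF10AT1, and 8 and 5 in MCF10Ca1a against MCF10A. These are 38.9% and 27.8%, 38.9% and 44.4%, and 44.4% and 27.8% of the list, near the 29.8% and 31.8%, 38% and 40.3%, and 39% and 41.9% of all genes. The median changes were 0.03, -0.06 and 0.09, the second being -0.002 with genes at the floor set to their bound. By limma on log2(TPM + 1) with a filter the first 2 took the other sign, at -0.02 and 0.30, and the calls of the second and the third comparison were 8 and 4, and 9 and 3. Over all 14096 genes that limma test called 6869 higher and 4422 lower in the second comparison, and 6181 and 5162 in the third. OLAH, the thioesterase that releases medium-chain fatty acids from FASN in the lactating gland, was the partner that rose most. It read 2.87, 2.64 and 2.73 TPM in MCF10A, 1.55, 1.40 and 1.31 TPM in MCF10AT1, and 56.1, 55.3 and 52.9 TPM in MCF10Ca1a, a fall and then a rise by 5.03 ± 0.07 on the log2 scale (edgeR adjusted p = 2.99e-15).

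ACACB, the carboxylase at the mitochondrial surface whose malonyl-CoA restrains fatty acid oxidation, had 268 to 301 counts in MCF10A, 45 to 54 in MCF10AT1 and 0 to 1 in MCF10Ca1a. It fell in MCF10AT1 (log2 change -2.55 ± 0.15 SE, edgeR adjusted p = 7.25e-09) and was at least 50.4-fold lower in MCF10Ca1a than in MCF10A against a floor of 3 counts per library. ACACA and ACACB thus went in opposite directions in MCF10Ca1a. FADS3, the neighbour of FADS1 and FADS2, fell by 0.21 ± 0.06 in MCF10AT1 and was higher by 0.71 ± 0.06 in MCF10Ca1a than in MCF10A (edgeR adjusted p = 0.00654 and 6.68e-08). ACSL1, an acyl-CoA synthetase, rose by 1.09 ± 0.06 in MCF10AT1, and ELOVL3, an elongase with only 24 to 36 counts in MCF10A, had 2 to 4 in MCF10AT1 and 0 in MCF10Ca1a.

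Genes that supply acetyl-CoA and NADPH were called higher more often than lower. Of 13 tested, 9 were higher and 2 lower in MCF10AT1 against MCF10A, 8 and 1 in MCF10Ca1a against MCF10AT1, and 9 and 1 in MCF10Ca1a against MCF10A, with medians of 0.29, 0.27 and 0.77 where all genes had 0.00, -0.04 and -0.05. The higher calls were 69.2%, 61.5% and 69.2% of the list, beside 29.8%, 38% and 39% of all genes. Lower calls were 15.4%, 7.69% and 7.69% of it, beside 31.8%, 40.3% and 41.9% of all genes. By limma on TPM the calls of the first comparison numbered 6 of the 11 genes that passed the filter, or 7 of 13 without a filter, in place of 11 of 13. IDH1, the cytosolic isocitrate dehydrogenase, fell most of the called genes in MCF10Ca1a, by 0.66 ± 0.06 from MCF10AT1 and by 0.49 ± 0.06 from MCF10A. ACSS1 and ACSS3, the mitochondrial relatives of ACSS2, had at most 27 and 35 counts in any library. ACSS1 was at 0 to 2 counts in MCF10AT1, at least 8.17-fold under MCF10A and at least 12.1-fold under MCF10Ca1a, and ACSS3 rose from 1 to 4 counts in MCF10A to 23 to 35 in MCF10Ca1a.

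Uptake genes went up and down. Of 12 tested, 7 rose and 3 fell in MCF10AT1 against MCF10A, 3 and 9 in MCF10Ca1a against MCF10AT1, and 5 and 5 in MCF10Ca1a against MCF10A. These are 58.3% and 25%, 25% and 75%, and 41.7% and 41.7% of the list, where 29.8% and 31.8%, 38% and 40.3%, and 39% and 41.9% of all genes were called, so the third pair is at the level of all genes. The medians were 0.43, -0.94 and -0.03, the last being positive, at 0.01 to 0.25, under the 6 other scalings tried. By limma on log2(TPM + 1) with a filter 9 of these genes passed the filter, of which 4 rose and 3 fell in the first comparison and 7 were called in the second, where edgeR called 12 of 12. SLC27A3, a long-chain acyl-CoA synthetase of the fatty acid transport family, fell by 4.46 ± 0.10 on the log2 scale from MCF10A to MCF10Ca1a, from 15.2 to 18.0 TPM down to 0.534 to 0.861 TPM. LPL, lipoprotein lipase, was at 0 to 1 counts in MCF10A, 89 to 110 in MCF10AT1 (at least 34.5-fold higher) and 4 to 9 in MCF10Ca1a. CD36, a fatty acid receptor, was called higher in MCF10Ca1a but had at most 16 counts.

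The calls of oxidation genes were near those of all genes. Of 20 tested, 7 rose and 6 fell in MCF10AT1 against MCF10A, and 9 rose and 9 fell in each comparison of MCF10Ca1a. That is 35% and 30%, and then 45% and 45%, beside 29.8% and 31.8%, 38% and 40.3%, and 39% and 41.9% of all genes. Their medians, 0.05, -0.12 and -0.11, changed sign on TPM, where limma with a filter called 10 higher and 6 lower in MCF10Ca1a against MCF10A. Over all 14096 genes that passed this filter, limma on log2(TPM + 1) called 6181 higher and 5162 lower there. CPT1A, which commits fatty acids to mitochondrial oxidation, did not pass the test in MCF10AT1 (-0.14 ± 0.06, edgeR adjusted p = 0.0812) and fell from there to MCF10Ca1a (-0.99 ± 0.07, edgeR adjusted p = 8.05e-09). ACADVL, the first dehydrogenase for very long chains, fell most of the called genes in MCF10AT1 (-0.63 ± 0.05). PPARA, a transcription factor of oxidation genes, rose most in the comparison of MCF10Ca1a with MCF10A (1.78 ± 0.06). PPARGC1A, a coactivator of mitochondrial genes, had 23 to 31 counts in MCF10A, 133 to 141 in MCF10AT1 and 0 to 2 in MCF10Ca1a.

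Among genes of glycerolipid assembly and storage, 10 of 18 tested were higher and 7 lower in MCF10AT1 against MCF10A, 7 and 8 in MCF10Ca1a against MCF10AT1, and 10 and 7 in MCF10Ca1a against MCF10A. The shares are 55.6% and 38.9%, 38.9% and 44.4%, and 55.6% and 38.9%, where all genes had 29.8% and 31.8%, 38% and 40.3%, and 39% and 41.9%, so in the second comparison the calls were about as common as over all genes. Their medians were 0.32, -0.04 and 0.28, and the second was positive, at 0.01 to 0.20, with DESeq2 size factors and on TPM, where limma on log2(TPM + 1) with a filter called 8 higher and 6 lower. GPAM, the acyltransferase that starts triacylglycerol synthesis, fell by 1.71 ± 0.06 from MCF10A to MCF10Ca1a, and DGAT2, which ends it, fell by 1.78 ± 0.09 in MCF10AT1 and averaged 7.66, 1.76 and 12.2 TPM. LIPE, hormone-sensitive lipase, fell most from MCF10AT1 to MCF10Ca1a (-1.94 ± 0.12). PLIN1, a lipid droplet coat protein best known from adipocytes, went from 2 to 6 counts in MCF10A and 10 to 18 in MCF10AT1 to 296 to 314 in MCF10Ca1a (log2 change 5.35 ± 0.20 over MCF10AT1, edgeR adjusted p = 1.59e-11). Another adipocyte marker, CIDEC, averaged 0.483 TPM in MCF10Ca1a, and ADIPOQ and LEP were at or near 0 there. PLIN2, a related coat protein, had 0 to 2 counts in MCF10A, 4 to 8 in MCF10AT1 and 12 to 23 in MCF10Ca1a, which is low for a gene that many epithelial cells express. The cause was not tested, and its called rises rest on these few counts.

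**Figure D5:**
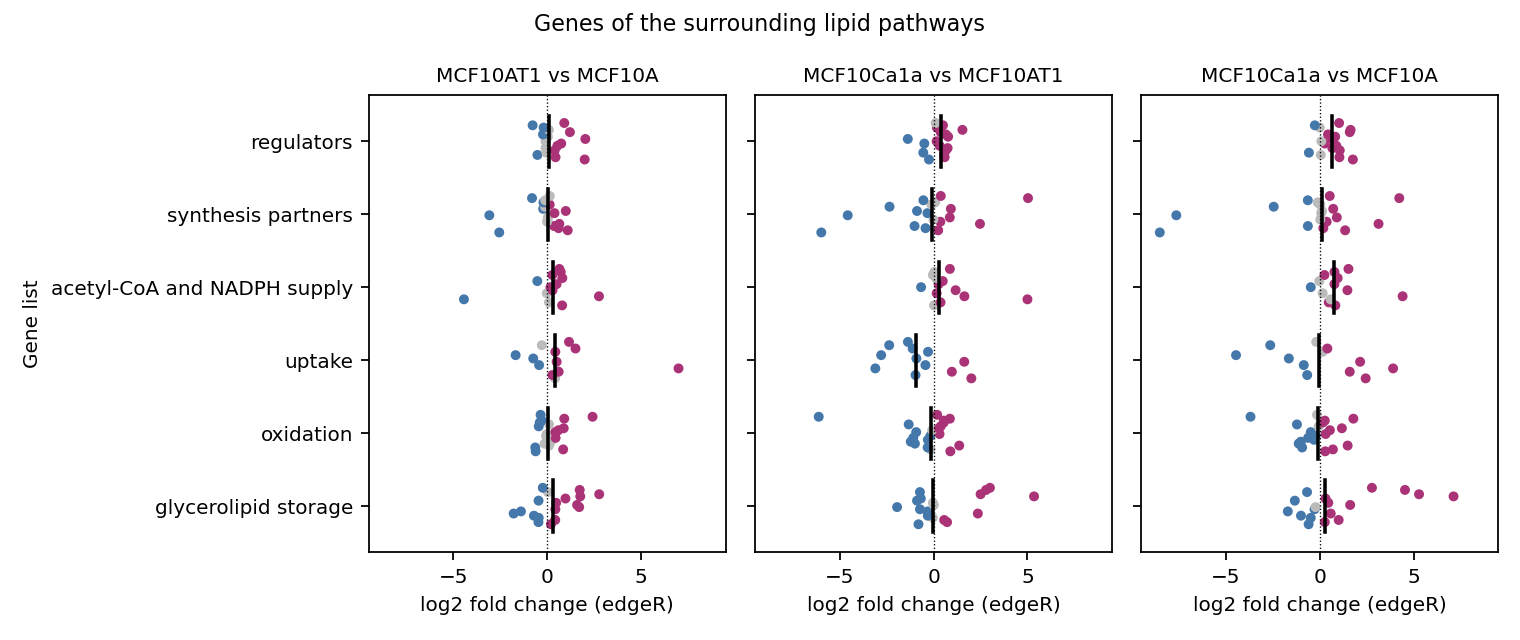
Log2 fold change of each tested gene in 6 lists around the pathway, in the 3 comparisons, with higher calls in purple, lower calls in blue, uncalled genes in grey and a black line at the list's median. Fitted values beyond about 4 rest on lines at or near 0 counts for ACACB, ELOVL3, ACSS1, ACSS3, LPL, PPARGC1A, PLIN1 and PLIN2, but not for OLAH and SLC27A3. The median of the regulators moves from 0.09 to 0.66.

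Patterns of the 10 genes over the 9 libraries were also set against 12620 other genes, by the root mean square difference of log2 CPM after each gene was centred on its own mean. The other member closest to SCD was FASN, at 0.22, and that closest to FADS2 was SCD5, at 0.56. ELOVL6 and FADS1 were each other's nearest member, at 0.26. Outside the members, ACLY was nearest to TKT at 0.02, ACACA to KAT7 at 0.02, ELOVL5 to C9orf78 at 0.03, SCD to NALF2 at 0.04, ELOVL6 to CTNNBIP1 at 0.04 and FADS1 to TTLL12 at 0.06. FASN was nearest to SH3BP1 at 0.08, ACSS2 to SMOC1 at 0.10, SCD5 to STEAP2 at 0.14 and FADS2 to FNDC10 at 0.24. The measure grows with the size of a gene's own change, so the distances of different members do not rank how common their patterns are.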

How the data were processed

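RNA-seq of 9 libraries (3 lines, 3 libraries each) was used as deposited, in 6 tables. Per the submitters' processing notes, Salmon and the build hg38 were used; the Salmon version, the annotation release and how the gene tables were summed are not given in the sources used here. The authors deposited estimated counts per gene and per transcript (also gene counts named length-scaled and scaled) and TPM per gene and per transcript. Every column was matched to a library by name, with 0 left over.

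Estimated counts were rounded. Genes were kept by edgeR's filterByExpr at a minimum count of 10 and a minimum total of 15; of 62666 genes, 17910 passed. The test was edgeR 4.0.16's quasi-likelihood test (R 4.3.3) with TMM and a single fit to the 9 libraries, and p-values were adjusted over the tested genes by Benjamini-Hochberg, with a threshold of 0.05. Folds in the text are edgeR's fitted changes, except the lower bounds, which are ratios of mean CPM to the floor in CPM. Transcript shares were tested with limma 3.58.1 on the log2 ratio of a transcript's counts to the rest of its gene (pseudocount 0.5, mean of at least 10 counts), adjusted over all transcripts. Shares of gene pairs were tested on TPM with an exact two-sided permutation test. A line with at most 3 counts in each library was taken as at its floor, and folds against it are lower bounds. Reads carried no molecular identifiers, so floors reflect counting error alone. Positions and exons came from GENCODE 29 (GRCh38) by unversioned identifier, although the versions of 9 of the 19 member transcripts used differ from those in the deposited table, so their starts and exons may not be those quantified, and upstream windows from RefSeq (GRCh38.p14). The 10 members and the lists were chosen with earlier results of these data known. The text names all 10 members; from each other list the called gene with the largest rise and the largest fall in each comparison; SREBF1, SREBF2, INSIG1, ACACB, FADS3 and CPT1A; and the nearest gene to each member among those with at least 100 counts on average in their highest line. CIDEC, KRT19, MLXIPL and THRSP were named after their values were seen. Some genes that this rule selects are not reported here.

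Other settings tried were size factors from DESeq2 (1.42.0) and its Wald test, no filter, both scaled count tables, a block on replicate number, thinning to the smallest library, only the lines compared, limma on log2(TPM + 1) and log2(TPM + 0.1), and each library left out. On simulated data for MCF10AT1 against MCF10A with 200 of 17411 genes changed, edgeR recovered 151, of which 33 of the 67 changed by the smallest step, with 12 false calls, and it made 0 calls for MCF10Ca1a against MCF10A, simulated without change. For the same first comparison DESeq2 recovered 149 of 200 with 22 false calls, limma on log2(value + 1) recovered 142 of 159 among 13458 genes with 4 false calls. The share test found 185 of 191 changed transcripts among 64342, with 12 false calls. Its simulation used 1 spread for all transcripts, and other transcripts of a changed gene were not counted as false. Few genes changed in these simulations, while 11025 of 17910 genes were called for MCF10AT1 against MCF10A in the data. The simulations therefore cannot show how the tests or the scaling do when most genes differ.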

Additional observations from a re-analysis of the deposited data

How the results depend on the processing

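No change of a member's direction among called values occurred under the 11 other settings of the gene test or the 9 fits without a library. The calls that were lost or gained concern ELOVL5 in MCF10AT1 against MCF10A and ELOVL5, SCD5, FADS1, FADS2 and ACSS2 in MCF10Ca1a against MCF10AT1, and their values stand beside those genes above. All 10 members were called between MCF10Ca1a and MCF10A under every setting and without any library. Members called numbered 8 to 9 for MCF10AT1 against MCF10A and 7 to 9 for MCF10Ca1a against MCF10AT1 over these settings. On TPM, limma called 6 supply genes (filter, either pseudocount) or 7 (no filter) for MCF10AT1 against MCF10A, and 7 uptake genes (filter, either pseudocount) for MCF10Ca1a against MCF10AT1. By limma on log2(TPM + 1) without a filter, higher and lower calls were 6 and 5 for regulators, 5 and 7 for partners, 5 and 2 for supply and 5 and 7 for storage in MCF10AT1 against MCF10A. Over all 32434 genes that fit called 3276 higher and 5742 lower, so lower calls were the more common on this scale. With length-scaled counts and with estimated counts in place of TPM, the SCD5 share of SCD and SCD5 differed by -3.88 and -3.88 percentage points for MCF10AT1 against MCF10A and by -3.91 and -3.91 for MCF10Ca1a against MCF10A. The ELOVL6 share of ELOVL5 and ELOVL6 differed in the same way by -8.47 and -10.3 points for MCF10AT1 against MCF10A, -18.6 and -22.4 for MCF10Ca1a against MCF10AT1, and -27.1 and -32.8 for MCF10Ca1a against MCF10A. These shares depend on the scale because TPM divides by length. Same-numbered libraries of different lines did not deviate together (9 pairs, r from -0.0597 to 0.0451), so the numbers do not pair them. With the replicate number as a block, 2 member transcripts in place of 4 were called for MCF10AT1 against MCF10A, and the block called 10846 genes where the test without it called 11025. Of 1242 single values recomputed, none reversed where either value was called, 57 lost their call and 12 gained one. Some uncalled values did change sign, such as ACACA in MCF10AT1 against MCF10A, with log2 changes from -0.10 to 0.07. Depth limits ACACB, ELOVL3, ACSS1, ACSS3, LPL, CD36, PPARGC1A, PLIN1 and PLIN2, whose folds rest on lines with few counts.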
